A study of Schizosaccharomyces pombe with 4 samples.

Results

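The genes described here are the protein-coding genes of the fission yeast Schizosaccharomyces pombe that have an intron lying wholly in an untranslated region (UTR) of their mRNA. The rule that chose them used annotation alone, but it was set with earlier results of these data known. It took genes with an intron before the start codon or past the stop codon, leaving out pss1 and the ribosomal protein symbols rps, rpl and rpp. The rule gave 157 UTR introns in 152 genes, of 5186 introns of at least 20 nt in 5113 protein-coding genes. Of these introns 103 lie in 5′ UTRs and 54 in 3′ UTRs, and no gene has both kinds. In 75 of the genes the UTR intron is the only kind of intron, and the other 77 genes also carry 178 coding introns. By chromosome, 66 UTR introns lie on I, 56 on II and 35 on III. Nascent RNA was sequenced as long cDNA reads, so that a read shows the 3′ end reached by the polymerase and the state of the introns it crosses. The prp2-1 library came from cells of genotype leu1.32 prp2-C387Y, grown at 26 °C and kept at 37 °C for 2 hours. The wild-type 37 °C library came from strain L972 (h-) treated the same way, labelled as wild type with no further allele. Wild-type cells at 30 °C gave 2 libraries, of which replicate 2 was strain SP286 (prp5::KanMx-prp5-WT, h+) and replicate 1 was L972 (h-). All cultures grew in complete medium, and the 37 °C groups have 1 library each and so no replicate check.

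An intron in a UTR is removed like any other but changes no codon, so its retention alters only the leader or the tail of the message. In fission yeast, U2AF helps mark the 3′ end of an intron before the catalytic steps of splicing. Its large subunit, encoded by prp2, binds pyrimidine-rich sequence, and its small subunit contacts the terminal AG. Fission yeast introns are mostly short, with a loosely conserved branch site near the 3′ end. Some introns hold small nucleolar RNAs (snoRNAs), which guide the modification of ribosomal RNA.

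The splice sites below are those of the introns on which the results turn, read 5′ to 3′ on the strand of the gene from the RefSeq sequence of ASM294v3. The first set gives the last 3 exon bases in lower case and the first 6 intron bases in capitals.
gpd3: tagGTATGT
zip1: tagGTAAGC
put2: ctaGTAAGT
cdc2: aacGTATTT
pac3: ttgGTAAGA
ero11: tagGTATGT
The second set gives the last 25 intron bases and 2 exon bases, with the closing AG in capitals. Capitals also mark any of the 4 forms of the branch motif that were searched for, which are CTAAC, the form CTAAT with a final T, the form CTGAC with a central G, and the form CTGAT with both.
gpd3: tcttcttcttaCTAACtcttttcAGat
zip1: ttccatgCTAACaattgattttcAGtt
put2: tttatgcgatattaatacttattAGat
cdc2: tcgcatctctattaacagatattAGaa
pac3: gaatCTAACaagttttttttcttAGct
ero11: gttccttaatttaCTAACatcttAGac
In put2 and cdc2 none of the 4 letter strings occurred in the last 40 nt of the intron.

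Across the annotation the UTR introns had ordinary ends. GT opened all but 1 of the 5′ UTR introns and all but 1 of the 3′ UTR introns, and AG closed all but 1 of the 5′ UTR introns and all 54 3′ UTR introns. The exceptions were cox7 and ckb1 at the 5′ end and asn1 at the 3′ end. GTAAGT opened 36.9% of 5′ UTR introns, 24.1% of 3′ UTR introns and 27.4% of coding introns of other genes, and GTATGT opened 16.5%, 11.1% and 20.01% of them. CTAAC on the transcript strand lay in the last 40 nt of 41.7% of 5′ UTR introns, 33.3% of 3′ UTR introns and 44.4% of coding introns of other genes. Any of the 4 strings was present in 73.8%, 63.0% and 74.9%. The 5′ UTR introns were longer, with a median of 76 nt (range 37 to 855 nt), against 56 nt in 3′ UTRs (37 to 223 nt) and 56 nt in coding introns of other genes. More than 100 nt were found in 41.7% of 5′ UTR introns, 18.5% of 3′ UTR introns and 20.2% of coding introns of other genes.

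The libraries held 33746 reads in prp2-1, 32176 in wild type at 37 °C, 45318 in wild-type 30 °C replicate 2 and 123756 in replicate 1. Read spans had medians of 771, 890, 436 and 256 nt in that order of libraries. The targeted gene itself, prp2, was covered by only 4, 7, 5 and 7 reads, and the files carry no bases, so the allele could not be checked. The 37 °C files share 3769 read names, and both came from the same 6 sequencing cells, whereas the 30 °C libraries share no cell with them or with each other. Scored reads are those whose span extended 10 nt or more beyond an intron at each end. Such a read was taken as spliced if its gap opened and closed no more than 5 nt from the annotated splice sites, and as unspliced if aligned blocks covered at least 90% of the intron. Reads of neither form made up between 0.809% and 2.31% of UTR intron crossings and were left out of the shares. In all, 128 of the 157 UTR introns were crossed by a scored read, 98 were seen spliced at least once, and 53 (50 in 5′ UTRs, 3 in 3′ UTRs) had at least 10 scored reads over the 4 libraries.

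The question for each class of intron was what share of reads crossing it had already lost it. Introns of 5′ UTRs were spliced in 108 of 334 reads in prp2-1, 165 of 320 in wild type at 37 °C, 159 of 297 in wild-type 30 °C replicate 2 and 238 of 431 in replicate 1. The shares were 32.3% (95% Wilson interval 27.5 to 37.5), 51.6% (46.1 to 57.0), 53.5% (47.9 to 59.1) and 55.2% (50.5 to 59.8) in that order. The 30 °C mean was 54.4% ± 1.19 (SD, n = 2). Introns of 3′ UTRs were spliced in 6 of 34, 19 of 46, 14 of 42 and 21 of 48 reads, or 17.6%, 41.3%, 33.3% and 43.8%, with a 30 °C mean of 38.5% ± 7.37 (SD, n = 2). Coding introns of the same genes were spliced in 29.6%, 55.5%, 55.2% and 63.1% of reads, and coding introns of other genes in 31.0%, 51.9%, 48.1% and 67.8%. The prp2-1 library was thus the lowest in each of these classes. At 3′ UTR introns that order rested on the pac3 intron described below: without it replicate 1 was lower, at 13.8% against 16.7% in prp2-1. All intervals cover counting error only: PCR copies were not removed, reads are not independent molecules, and a share pooled over introns follows the introns with the most reads.

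**Figure D1:**
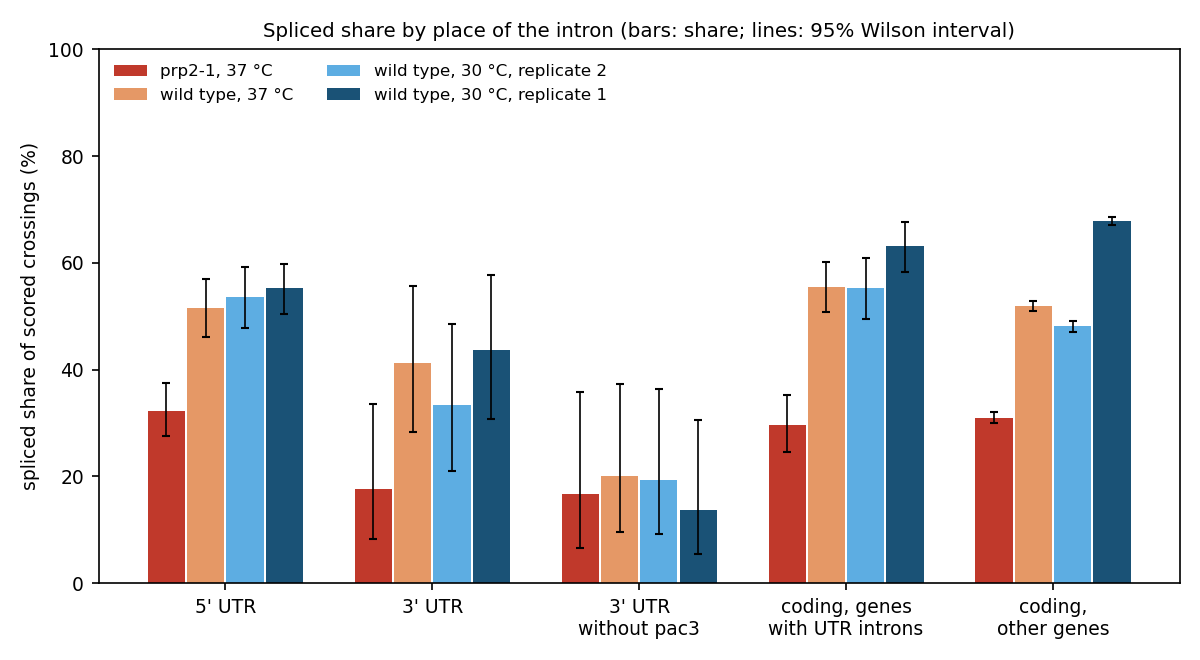
Spliced share of scored crossings (percent, vertical axis) by place of the intron, with 1 bar per library and 95% Wilson intervals as lines. In 3′ UTRs without pac3 the shares lie between 13.8% and 20%, below the 5′ UTR bars of all 4 libraries.

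Most of the spliced 3′ UTR reads came from 1 intron, in pac3. The gene pac3 (SPBC16E9.19) encodes a proteasome assembly chaperone, and its 3′ UTR intron lies on chromosome II, 1923541 to 1923599, plus strand, 59 nt. It was spliced in 2 of 10 reads in prp2-1, 13 of 16 in wild type at 37 °C, 8 of 11 in 30 °C replicate 2 and 17 of 19 in replicate 1. None of these 56 reads began before the stop codon of pac3. Their commonest 5′ end, with 49 of the 56 reads, was position 1923510, which is the annotated start of the next gene on the strand, erg6 (SPBC16E9.05, II, 1923510 to 1925394). The other 7 reads began within 5 nt of it, and 55 of the 56 ended no more than 100 nt past the end of erg6. The intron therefore also lies inside the transcribed leader of erg6, a sterol methyltransferase of ergosterol synthesis, where the annotation gives no intron.

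Without pac3, 3′ UTR introns were spliced in 4 of 24 reads in prp2-1, 6 of 30 in wild type at 37 °C, 6 of 31 in 30 °C replicate 2 and 4 of 29 in replicate 1. These shares, 16.7%, 20%, 19.4% and 13.8%, have wide intervals, the widest being 6.68 to 35.9 in prp2-1. The 5′ minus 3′ difference was then 15.7 points (95% Newcombe interval -4.11 to 26.9) in prp2-1, 31.6 (13.4 to 43.4) in wild type at 37 °C, 34.2 (16.3 to 45.8) in replicate 2 and 41.4 (24.0 to 50.9) in replicate 1. With pac3 it was 14.7, 10.3, 20.2 and 11.5 points, and only the interval of replicate 2 (4.06 to 33.7) left out 0. Reads had less sequence past a 3′ UTR intron (medians of 239 to 564 nt) than past a 5′ UTR intron (275 to 898 nt). With bins of that distance as strata and pac3 left out, the odds ratio of 5′ over 3′ UTR introns was 2.21 (95% interval 0.707 to 6.91), 2.98 (1.09 to 8.17), 4.44 (1.73 to 11.4) and 7.35 (2.43 to 22.3), in the library order above. Against coding introns of other genes, leaving out rps, rpl and rpp genes, the same stratified odds ratio of 3′ UTR introns without pac3 was 0.510 (0.176 to 1.48) in prp2-1, 0.272 (0.111 to 0.667) in wild type at 37 °C, 0.318 (0.131 to 0.767) in replicate 2 and 0.0978 (0.0335 to 0.286) in replicate 1.

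Apart from pac3, 9 of the 54 3′ UTR introns were crossed by at least 5 scored reads. The intron of ero11, an oxidoreductin of the endoplasmic reticulum (II, 2720591 to 2720757, minus strand, 167 nt), holds the snoRNA snoU18. It was unspliced in all 13 scored reads, 2 in prp2-1, 4 in 30 °C replicate 2 and 7 in replicate 1, which allows a share spliced at the annotated sites of up to 23.1%. The remaining crossing read, in wild type at 37 °C, was spliced at the annotated 5′ site and a 3′ site 9 nt past the annotated one, and so was not scored. It was also the only one of the 14 crossing reads to begin before the stop codon, while 8 of the others shared the 5′ end at 2720893. Intron 3 of spt20, which encodes a subunit of the SAGA coactivator (I, 5369783 to 5369973, minus strand, 191 nt), was spliced in 3 of 4 reads in prp2-1, 3 of 5 in replicate 2 and 0 of 1 in replicate 1. Of these 10 reads 1 began before the stop codon, and the next intron of spt20, which holds snoU24, was unspliced in all 3 of its scored reads. In vma9 (a subunit of the vacuolar proton pump) and jac1 (a DNAJ-domain co-chaperone), 8 of 9 reads began before the stop codon in each gene, and 1 of 9 was spliced. In chk1, the checkpoint kinase gene, 4 of 6 reads were spliced, and in pop5, of RNase P and MRP, 0 of 6. In osh41 2 of 5 reads were spliced, and in SPBP22H7.04 and smp4 0 of 5 each. The genes from chk1 on were named after their values were seen. The introns of pac3, ero11, spt20 and pop5 (0 of 6 reads from before it) were thus read mainly from starts past the stop codon. Those of vma9, jac1, chk1 (4 of 6 reads), osh41 (4 of 5), SPBP22H7.04 (4 of 5) and smp4 (5 of 5) were read mainly from before it.

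Introns of 5′ UTRs differed widely among themselves. Over the 50 with at least 10 scored reads, the share over the 4 libraries had a median of 45.8% and ran between 0 and 76%. Reads across them usually began at the annotated start of the gene: 78.9% of crossing reads in prp2-1, 70.9% in wild type at 37 °C, 72.1% in replicate 2 and 71.5% in replicate 1 started within 10 nt of it. The most-read intron was that of gpd3, a glyceraldehyde 3-phosphate dehydrogenase of glycolysis (II, 578182 to 578724, plus strand, 543 nt). It was spliced in 35 of 71 reads in prp2-1, 16 of 27 in wild type at 37 °C, 2 of 3 in replicate 2 and 8 of 10 in replicate 1, and 106 of its 111 reads shared a 5′ end. The intron of zip1, a transcription factor gene (I, 4299959 to 4300021, plus strand, 63 nt), was spliced in 9 of 11, 16 of 23, 13 of 17 and 23 of 30 reads, or 81.8%, 69.6%, 76.5% and 76.7%. Its share in prp2-1 was not below that of the wild-type libraries.

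Metabolic and cell-cycle genes spanned the same range. The 443 nt intron of SPAC27E2.03c, an Obg-like ATPase (I, 4007149 to 4007591, minus strand), was spliced in 8 of 15 reads in prp2-1, 9 of 11 in wild type at 37 °C, 5 of 6 in replicate 2 and 16 of 18 in replicate 1. That of ade1, an enzyme of purine synthesis (II, 3140641 to 3140700, plus strand, 60 nt), was spliced in 1 of 8, 6 of 9, 3 of 3 and 17 of 23 reads. In both genes the prp2-1 share was the lowest. The intervals of the 4 libraries overlap at SPAC27E2.03c, and at ade1 that of prp2-1 is clear of replicate 1 only. The intron of cdc13, the mitotic B-type cyclin (II, 420309 to 420661, plus strand, 353 nt), was spliced in 3 of 7, 7 of 9, 3 of 6 and 7 of 8 reads. That of mpe1, a RING-type ubiquitin ligase whose budding yeast counterpart acts in mRNA 3′ end formation (II, 3661792 to 3661865, minus strand, 74 nt), was spliced in 4 of 14, 2 of 9, 3 of 10 and 3 of 5 reads. For mpg1, which makes GDP-mannose (III, 2012614 to 2012829, plus strand, 216 nt), the counts were 5 of 11, 3 of 15, 5 of 6 and 2 of 6. In cdc13, mpe1 and mpg1 the intervals of the 4 libraries overlap. The intron of rrn3, an initiation factor of RNA polymerase I (I, 2238905 to 2239047, minus strand, 143 nt), was unspliced in all 6 reads of prp2-1 and both reads of wild type at 37 °C, against 5 of 11 spliced in replicate 2 and 3 of 10 in replicate 1. The 0 of 6 allows a share of up to 50%, and the intervals of the 4 libraries overlap here too.

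**Figure D2:**
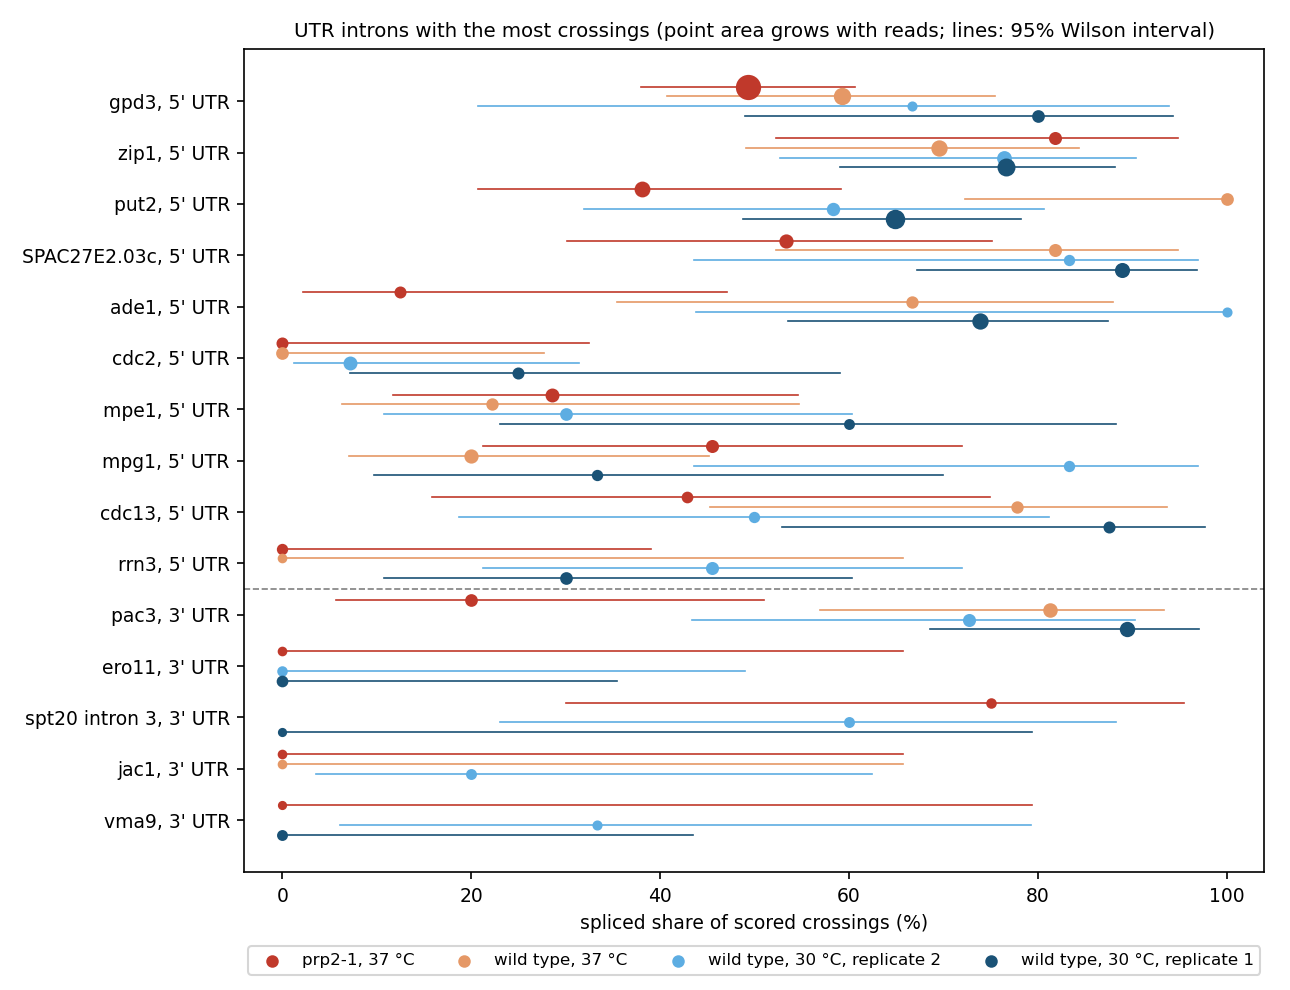
Spliced share (percent, horizontal axis) of the 10 5′ UTR and 5 3′ UTR introns with the most scored crossings, 1 point per library with its 95% Wilson interval. The zip1 points lie together between 69.6% and 81.8%, the cdc2 points between 0 and 25%, and those of put2 and pac3 are lowest in prp2-1.

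Of the 50 introns, 5 were spliced in under 10% of reads over the 4 libraries, all of them 60 nt or shorter. These were cdc2 with 3 of 40 reads, png3 with 0 of 17, sds23 with 1 of 17, cog1 with 1 of 16 and vcx1 with 1 of 13. All but cdc2 were picked after their values were seen. The cdc2 intron (II, 1500244 to 1500285, plus strand, 42 nt) was spliced in 0 of 8 reads in prp2-1, 0 of 10 in wild type at 37 °C, 1 of 14 in replicate 2 and 2 of 8 in replicate 1. Counts of 0 in 8 and 10 reads allow shares of up to 37.5% and 30%. The 0 of 17 of png3 allows up to 17.6%. At vcx1, 2 further reads in prp2-1 and 1 in wild type at 37 °C were spliced from the annotated 5′ site to another 3′ site. That site lay 89 or 98 nt past the annotated one. These reads were not scored, so the vcx1 share covers the annotated junction only.

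Longer 5′ UTR introns were spliced in more of their reads. At 20 to 60 nt the share was 15.4% in prp2-1, 36.4% in wild type at 37 °C, 44.1% in replicate 2 and 46.7% in replicate 1. At 61 to 100 nt it was 35.3%, 50.5%, 51.7% and 55.6%, and over 100 nt it was 38.3%, 59.9%, 62.6% and 61.6%. The longest class exceeded the shortest by 22.9 points (95% Newcombe interval 11.2 to 32.5) in prp2-1, 23.5 (9.81 to 35.9) in wild type at 37 °C, 18.5 (4.90 to 31.3) in replicate 2 and 14.9 (3.76 to 25.5) in replicate 1. Taken intron by intron, the median share over the 4 libraries was 32.1% over 26 introns of up to 60 nt, 40% over 20 introns of 61 to 100 nt and 53.2% over 32 longer introns, each with at least 5 reads. Without gpd3 and cdc2 the differences were 14.5 points (1.47 to 25.8), 18.2 (3.40 to 31.9), 11.9 (-2.30 to 25.6) and 12.4 (0.995 to 23.4), so the interval of replicate 2 then held 0.

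**Figure D3:**
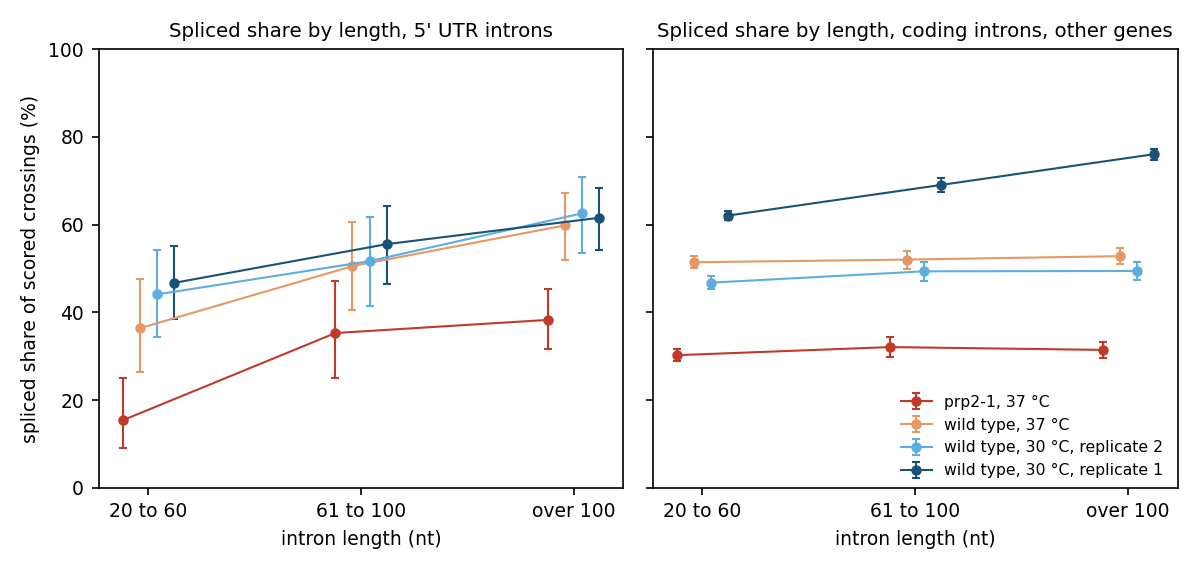
Spliced share (percent, vertical axis) by intron length in nt, for 5′ UTR introns (left) and coding introns of other genes (right), 1 line per library with 95% Wilson intervals. The 5′ UTR shares of all 4 libraries are higher in the class over 100 nt than in the class of 20 to 60 nt, while the coding lines of the 37 °C libraries and replicate 2 are nearly level.

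Coding introns of other genes gave differences between the same length classes of 1.21 points in prp2-1, 1.39 in wild type at 37 °C, 2.67 in replicate 2 and 13.99 in replicate 1. The difference was larger at 5′ UTR introns by 21.7 points (95% interval 9.79 to 31.5) in prp2-1, 22.1 (8.23 to 34.7) in wild type at 37 °C and 15.9 (2.02 to 28.8) in replicate 2, but by 0.879 (-10.3 to 11.7) in replicate 1. Without gpd3 and cdc2 it was larger by 13.3 points (0.0466 to 24.9), 16.8 (1.83 to 30.7) and 9.20 (-5.17 to 23.1), and by -1.57 (-13.1 to 9.58) in replicate 1. Of these, the interval of wild type at 37 °C left out 0 both with and without gpd3 and cdc2. That of prp2-1 without them held 0 when rps, rpl and rpp genes were also left out of the coding introns (-0.124 to 24.7). Coding introns of the same genes differed between the length classes by 6.63 points in prp2-1, 1.81 in wild type at 37 °C, 19.8 (4.63 to 32.7) in replicate 2 and 2.42 in replicate 1, so in replicate 2 their difference was no smaller than that of the 5′ UTR introns. Against these, the difference at 5′ UTR introns was larger by an interval that left out 0 in wild type at 37 °C only (21.7 points, 3.09 to 39.7), and in no library without gpd3 and cdc2.

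Among 5′ UTR introns, those with CTAAC in their last 40 nt were spliced in more of their reads. Length and motif were not stratified by each other, so these contrasts can rest on the same introns. The long introns of gpd3 and SPAC27E2.03c carry CTAAC and the short one of cdc2 lacks it. By contrast, the short intron of ade1 carries it, and the longer one of put2 lacks CTAAC. At the 43 introns that have it, 40.3% of reads were spliced in prp2-1, 60.4% in wild type at 37 °C, 61.5% in replicate 2 and 60.9% in replicate 1. At the 60 without it the shares were 19.5%, 38.3%, 45.6% and 49.3%. The differences were 20.8 points (10.7 to 29.8), 22.1 (10.98 to 32.5), 15.8 (4.505 to 26.6) and 11.6 (2.23 to 20.7). Without gpd3 and cdc2 they were 14.7 (3.62 to 25.2), 19.1 (7.28 to 30.2), 11.7 (0.118 to 23.0) and 9.75 (0.167 to 19.1). Coding introns of other genes differed in the same direction by 4.496, 3.49, 3.35 and 6.26 points. The difference at 5′ UTR introns without gpd3 and cdc2 exceeded that at coding introns of other genes by an interval that left out 0 in wild type at 37 °C only (15.6 points, 3.63 to 26.8), and against coding introns of the same genes no interval left out 0. At 3′ UTR introns without pac3 the introns with CTAAC were spliced in 3 of 10 reads in prp2-1, 0 of 3 in wild type at 37 °C, 3 of 12 in replicate 2 and 0 of 9 in replicate 1. Those without it were spliced in 1 of 14, 6 of 27, 3 of 19 and 4 of 20, so the direction differed between libraries and all 4 intervals of the difference held 0. The intron of put2, which lacks all 4 strings in that window, was spliced in 49 of 80 reads, and that of png3, which has a CTAAC, in 0 of 17. Its last 25 bases and 2 exon bases, with the motif and AG in capitals, read as follows.
png3: aaaagcaatgCTAACcttgggcaAGta

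UTR introns were also set against the coding introns of the same genes, with genes as strata. The Mantel-Haenszel odds ratio of UTR over coding introns was 0.494 (95% interval 0.234 to 1.04) over 32 genes in prp2-1, 0.688 (0.420 to 1.12) over 39 genes in wild type at 37 °C, 0.701 (0.416 to 1.18) over 35 in replicate 2 and 0.634 (0.400 to 1.004) over 41 in replicate 1. All 4 intervals hold 1. Outside prp2-1 these ratios include pac3, whose UTR intron reads began at or near the start of erg6. Without the most-crossed intron of each class, pac3 among them, the intervals of wild type at 37 °C and replicate 1 left out 1. For 5′ UTR introns alone the ratio was 0.644, 0.635, 0.817 and 0.577, of which the last (0.337 to 0.986) left out 1, and without cdc2 it was 0.846 (0.358 to 2.00), 0.989 (0.517 to 1.89), 1.17 (0.622 to 2.21) and 0.664 (0.379 to 1.16). For 3′ UTR introns without pac3 it was 0.114 (0.0134 to 0.967) over 8 genes in prp2-1, 0.328 (0.103 to 1.04) over 9 in wild type at 37 °C, 0.153 (0.0204 to 1.15) over 9 in replicate 2 and 0.211 (0.0586 to 0.761) over 7 in replicate 1. Those of prp2-1 and replicate 1 left out 1, on 1 of 9 and 4 of 14 UTR reads spliced. With distance bins as further strata, prp2-1 gave no estimate and replicate 1 gave 0.138 (0.0204 to 0.933). With pac3, and genes alone as strata, prp2-1 was unchanged. The others were then 0.834 (0.337 to 2.07) in wild type at 37 °C, 0.320 (0.0753 to 1.36) in replicate 2 and 0.829 (0.338 to 2.03) in replicate 1.

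In cdc2, which encodes the cyclin-dependent kinase of the cell cycle, the leader intron stood apart from the coding introns downstream of it. Intron 1, in the 5′ UTR, was spliced in 3 of 40 reads over the 4 libraries. Introns 2, 3, 4 and 5, all coding, were spliced in 17 of 35, 14 of 25, 11 of 17 and 6 of 8. Among 84 pairs of the leader intron and a coding intron on the same read, 45 had only the coding intron spliced, 0 only the leader intron, 2 both and 37 neither. By library, only the coding intron was spliced in 6 of 19 pairs in prp2-1, 22 of 33 in wild type at 37 °C, 11 of 23 in replicate 2 and 6 of 9 in replicate 1. These pairs share reads, since a read of cdc2 can cross several coding introns.

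**Figure D4:**
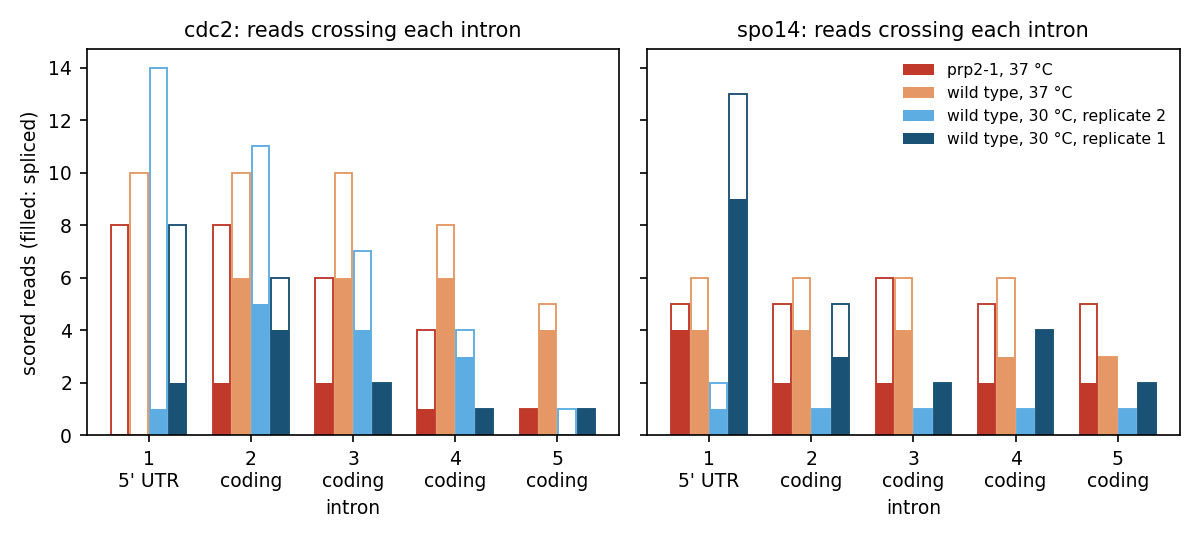
Scored reads (vertical axis; outline, all; filled, spliced) at each intron of cdc2 and spo14, 1 bar per library. The 5′ UTR intron of cdc2 is nearly empty of spliced reads where its coding introns are partly filled, and that of spo14 is filled in 18 of 26 reads.

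The genes next in number of pairs did not share that order. In spo14, a GDP/GTP exchange factor gene, the 37 nt leader intron was spliced in 4 of 5 reads in prp2-1, 4 of 6 in wild type at 37 °C, 1 of 2 in replicate 2 and 9 of 13 in replicate 1. Of its 49 pairs 30 had both introns spliced, 11 neither, 8 only the leader intron and 0 only the coding intron, and 6 of those 8 were in prp2-1. In the kinase gene ppk29 the 31 pairs held 20 with both spliced and 3 of each differing kind. In pku70, a subunit of the Ku DNA-end-binding complex, 15 of 23 pairs had neither intron spliced, and in qcr6, of respiratory complex III, 12 of 22 had both. In png3 and vma9 the order was that of cdc2, and they were picked after their values were seen: only the coding intron was spliced in 6 of 17 pairs of png3 and in 9 of 16 pairs of vma9, whose UTR intron is in the 3′ UTR, and only the UTR intron in 0 of each. Over all genes, a 5′ UTR intron and a coding intron on the same read were in the same state in 75.6% of 90 pairs in prp2-1, 75% of 148 in wild type at 37 °C, 71.6% of 102 in replicate 2 and 75.5% of 106 in replicate 1. Of the pairs that differed, only the UTR intron was spliced in 11 of 22, 8 of 37, 12 of 29 and 8 of 26. Without cdc2 it was 11 of 16, 8 of 15, 12 of 18 and 8 of 20. For the first and second intron of other genes, both coding, only the first was spliced in 44.0%, 52.2%, 57.3% and 52.2% of differing pairs. The exact binomial intervals of the UTR pairs without cdc2, the widest of them 26.6 to 78.7% in wild type at 37 °C, held those values. With cdc2, the intervals of wild type at 37 °C (21.6%, exact interval 9.83 to 38.2) and replicate 1 (30.8%, 14.3 to 51.8) did not. Those pairs can count a read more than once. With cdc2 but only the 5′ UTR intron and the next intron of the read, a coding one, the shares were 50% (exact interval 21.1 to 78.9) in prp2-1, 26.7% (7.79 to 55.1) in wild type at 37 °C, 45.5% (16.7 to 76.6) in replicate 2 and 35.3% (14.2 to 61.7) in replicate 1, and all 4 intervals held the values of coding pairs.

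The prp2-1 library was set against the wild type of the same temperature to ask how UTR introns fared with a mutant U2AF large subunit. UTR introns were spliced in 31.0% of reads in prp2-1, against 50.3% in wild type at 37 °C, a difference of -19.3 points (95% Newcombe interval -26.1 to -12.2). With introns as strata the odds ratio was 0.354 (0.243 to 0.517) for all UTR introns, 0.379 (0.257 to 0.560) for 5′ UTR introns and 0.109 (0.0200 to 0.596) for 3′ UTR introns. Without pac3 the 3′ UTR ratio was 0.625 (0.0190 to 20.5), which is not informative at this depth. Coding introns of the same genes had 0.317 (0.215 to 0.466) and coding introns of other genes 0.370 (0.344 to 0.399). The odds ratio of UTR introns over that of coding introns of other genes was 0.957 (0.651 to 1.41), so no difference between the kinds of intron was detectable. Values below 1 mean a larger drop at UTR introns and values above 1 a smaller one, and the interval holds both. In each of the 6 sequencing cells shared by these libraries the UTR share was lower in prp2-1: 36.5% against 46.4%, 29.7% against 52.3%, 30.6% against 58.3%, 37.8% against 51.7%, 24.6% against 58.3% and 25.7% against 38.96%. The cells split a single library of each strain, so they are not replicates of a condition. The prp2-1 strain also carries leu1.32, so the prp2 allele and the rest of the strain background cannot be told apart.

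**Figure D5:**
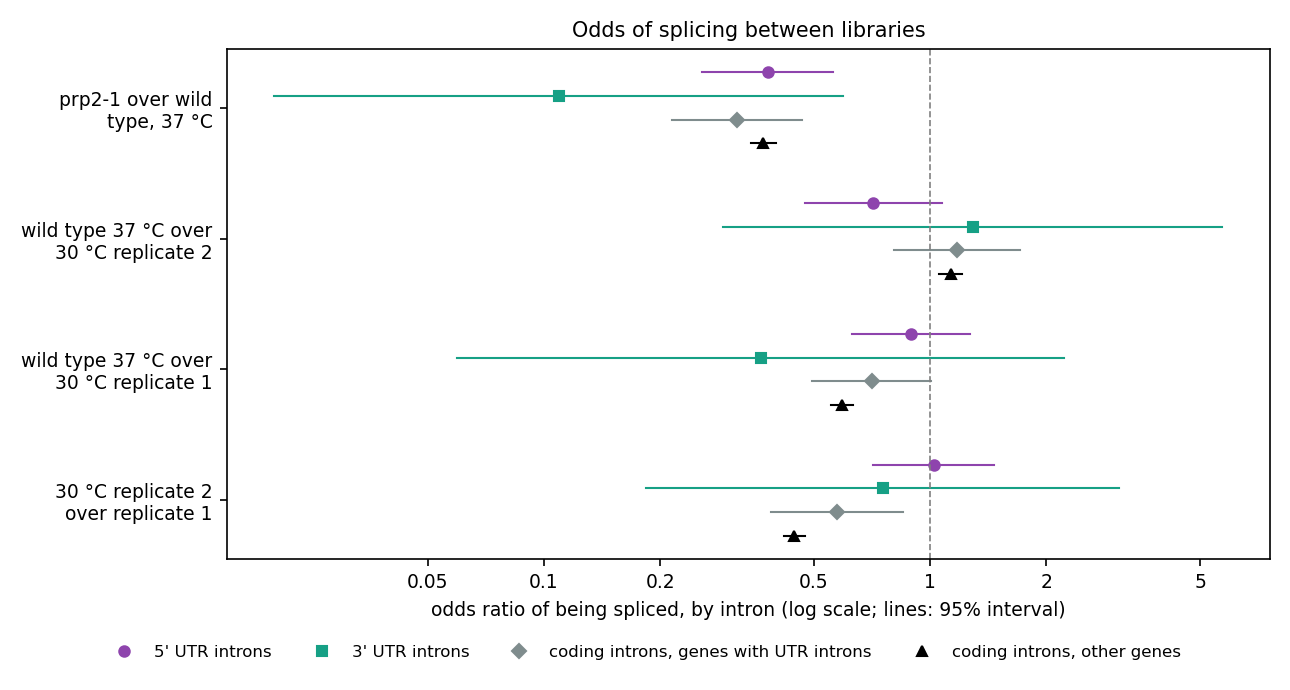
Odds ratio of being spliced between libraries, with introns as strata (horizontal axis, log scale), for 5′ UTR, 3′ UTR and coding introns, with 95% intervals as lines. In the prp2-1 comparison every class lies below 1, and between the 30 °C libraries the 5′ UTR ratio is 1.02 while that of coding introns of other genes is 0.445.

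Single introns could be tested between these libraries where both had at least 10 scored reads. Fisher's exact test, two-sided and adjusted by Benjamini-Hochberg over all 68 introns tested, called 9 of them (13.2%), all lower in prp2-1. Of the 6 UTR introns tested it called 2. The intron of put2, a dehydrogenase of proline breakdown (II, 2325119 to 2325233, plus strand, 115 nt), was spliced in 8 of 21 reads in prp2-1, against 10 of 10 in wild type at 37 °C (Fisher's exact test, adjusted p = 0.0224). At 30 °C it was spliced in 7 of 12 reads in replicate 2 and 24 of 37 in replicate 1, so the fully spliced wild type at 37 °C stood above the other wild-type libraries. The intron of pac3 was spliced in 2 of 10 reads against 13 of 16 (adjusted p = 0.0387, Fisher's exact test). With reads of repeated names left out, put2 differed by -62.5 points and was not called (Fisher's exact test, adjusted p = 0.0826), and pac3 was not tested. The 4 others were not called: gpd3 differed by -9.96 points, SPAC27E2.03c by -28.5, zip1 by 12.3 and mpg1 by 25.5, with intervals that hold 0. These tests compare reads of 2 libraries, not the conditions.

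Temperature was compared through wild-type libraries, with the strain the same only for replicate 1. UTR introns were spliced in 50.3% of reads in wild type at 37 °C, against 51.03% in 30 °C replicate 2 and 54.1% in replicate 1. The odds ratio by intron was 0.742 (95% interval 0.501 to 1.10) over replicate 2 and 0.860 (0.610 to 1.21) over replicate 1, so neither left out 1. Coding introns of other genes gave 1.13 (1.06 to 1.21) and 0.591 (0.555 to 0.629). UTR introns divided by coding introns of other genes gave a factor of 0.656 (0.441 to 0.977) with replicate 2 as the 30 °C library. The factor was 1.45 (1.03 to 2.06) with replicate 1, on the opposite side of 1. Neither held once bins of the distance between intron and read 3′ end were added as strata. Coding introns of other genes then had an odds ratio of 0.953 (0.866 to 1.05) over replicate 2, turned from above to below 1, and 0.466 (0.423 to 0.513) over replicate 1. The factors became 0.702 (0.412 to 1.19) and 1.35 (0.775 to 2.36), and both intervals held 1. Without rps, rpl and rpp genes, and without those bins, the factor with replicate 1 was 1.32 (0.932 to 1.88). Fisher's exact test called 0 of 4 UTR introns against replicate 2, where 3.45% of the 58 introns tested were called, and 0 of 5 against replicate 1, where 4.17% of 96 were called (3.12% lower at 37 °C). At an unadjusted p under 0.05, put2 alone of the UTR introns passed in each, where 10.3% and 19.8% of all introns tested did. Median read span was 890 nt in wild type at 37 °C, against 436 nt in replicate 2 and 256 nt in replicate 1. Temperature, growth at 26 °C before the shift, read span, sequencing cells and, for replicate 2, strain cannot be told apart.

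The pair of 30 °C libraries differed at coding introns and not detectably at UTR introns. The odds ratio of replicate 2 over replicate 1 was 1.002 (95% interval 0.706 to 1.42) for UTR introns, 0.573 (0.387 to 0.848) for coding introns of the same genes and 0.445 (0.418 to 0.474) for coding introns of other genes. UTR introns exceeded coding introns of other genes in this ratio by a factor of 2.25 (1.58 to 3.22), those of genes outside rps, rpl and rpp by 1.86 (1.30 to 2.66) and those of the same genes by 1.75 (1.03 to 2.96). For 5′ UTR introns the corresponding factors were 2.30, 1.90 and 1.78, and all 3 intervals left out 1. In replicate 1, 5′ UTR introns differed from coding introns of other genes by -12.6 points (95% Newcombe interval -17.4 to -7.89), and by -7.52 (-12.3 to -2.81) when rps, rpl and rpp genes were left out of the coding introns as they are from the UTR introns. The difference with all other genes was 1.33 (-3.56 to 6.62) in prp2-1, -0.365 (-5.91 to 5.14) in wild type at 37 °C and 5.42 (-0.352 to 11.1) in replicate 2. Fisher's exact test called 0 of 4 UTR introns between the 30 °C libraries, where it called 38 of all 107 introns tested (35.5%). At an unadjusted p under 0.05 it was 0 of 4 against 46 of 107 (43%). Median read span, 436 nt in replicate 2 against 256 nt in replicate 1, moved with this comparison. Strain, mating type and sequencing cells did so too, and their parts cannot be told apart. With bins of distance to the read 3′ end as strata, UTR introns exceeded coding introns of other genes by a factor of 2.75 (1.68 to 4.49) and those of the same genes by 2.49 (1.18 to 5.22).

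The share was also set against the distance between the intron and the 3′ end of the read. In replicate 1, 5′ UTR introns were spliced in 5 of 20 reads that ended 10 to 50 nt past the intron, 22 of 41 that ended over 50 and up to 100 nt past it, 47 of 100 that ended over 100 and up to 200 nt past it, 71 of 124 over 200 and up to 400 nt, 67 of 106 over 400 and up to 800 nt and 26 of 40 that ended over 800 nt past it, or 25%, 53.7%, 47%, 57.3%, 63.2% and 65%. In the 3 bins of over 200 and up to 400 nt, over 400 and up to 800 nt, and over 800 nt, prp2-1 had 15.8% (6 of 38 reads), 32.7% (35 of 107) and 37.7% (60 of 159), below the 27.3% (6 of 22) of the bin over 100 and up to 200 nt in the first of them. Wild type at 37 °C had 42.3% (11 of 26), 48.96% (47 of 96) and 57.0% (102 of 179), after 33.3% (4 of 12) at over 100 and up to 200 nt. Replicate 2 had 50% (39 of 78), 57.9% (55 of 95) and 54.1% (33 of 61), after 55.6% (25 of 45), with no steady order. The bins under 100 nt held at most 8 reads in each 37 °C library.

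Gaps at unannotated junctions were found at UTR introns of 16 genes, in 1 or 2 reads each at 13 of them, and in 3 or more reads at asn1, omh3 and vcx1. The first 2 of these, which had no read at the annotated junction, are described here and were picked after their values were seen. At asn1, asparagine synthetase (II, 735289 to 735402, plus strand), no read matched the annotated intron, which ends in TTT and not AG. A gap ending 19 nt earlier, at 735383, was present in 1 read in prp2-1, 1 in wild type at 37 °C, 1 in replicate 2 and 3 in replicate 1, beside 1, 0, 3 and 1 unspliced reads. The ends are shown with the last 2 intron bases of the site used in capitals.
asn1, site used: tttgtttagtaaccataaattttAGat
asn1, annotated: ttttagatctatttgtcaattttTTtg
At omh3, a mannosyltransferase gene (III, 1609508 to 1609641, plus strand), a gap beginning 58 nt earlier, at 1609450, was present in 1 read each in wild type at 37 °C, replicate 2 and replicate 1, with 7 unspliced reads and 0 at the annotated site. The 5′ ends are shown with the intron bases in capitals.
omh3, site used: aagGTAAGA
omh3, annotated: ccaGTTAAA
The site used begins with GTAAGA, as in pac3, and the annotated site with GTTAAA.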

How the data were processed

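Nascent RNA of 4 cultures was depleted of polyadenylated and ribosomal RNA, ligated to a 3′ adaptor, copied to cDNA with low-cycle PCR and sequenced on a Pacific Biosciences instrument, per the labels' protocols. The deposited files hold 1 line per aligned read with its blocks, not normalised by the authors so far as the labels say. The score column of the deposited files is 40 in every line and was not used. The submitters' processing notes name cutadapt 1.8. The aligner and genome build are not given in the sources used here. Reads were set against ASM294v3, to which between 87.7% and 93.6% of gaps matched exactly at both ends.

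Members and lists were chosen with earlier results of these data known. Introns under 20 nt were left out, and the 10 nt overhang was taken from the span of a read, gaps included. A read was called unspliced only without a gap of 20 nt or more in the intron. Shares carry Wilson intervals, differences Newcombe intervals, odds ratios Mantel-Haenszel estimates with Robins-Breslow-Greenland intervals, and differences of differences intervals built from the Newcombe bounds, all at 95%. Where no spliced read was seen, 3 reads over the scored reads set the upper limit. Single introns that had 10 or more scored reads in each library were compared with Fisher's exact test, two-sided, with Benjamini-Hochberg adjustment over all introns tested and a threshold of 0.05. The report names the 10 5′ and 5 3′ UTR introns with the most scored crossings, each UTR intron called, and the 5 genes with the most reads crossing both a UTR and a coding intron. The read calls were checked on simulated reads, and Fisher's exact test and the Mantel-Haenszel ratio on simulated counts. Those counts treated reads as independent, and the other kinds of interval were not checked in this way. Python 3.11.15 and SciPy 1.17.1 were used. Each UTR gene named beyond these was chosen after its values were seen. Alternatives covered gap tolerance, overhang, duplicate reads and names, read starts and ends, distance strata and read minimums. The 30 °C libraries came from different strains, L972 and SP286, and so from separate cultures, and they share no sequencing cell. Their spread can therefore hold strain, culture and technical differences, which cannot be told apart.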

Additional observations from a re-analysis of the deposited data

How the results depend on the processing

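The prp2-1 over wild-type 37 °C odds ratio of UTR introns lay between 0.336 and 0.375 in 11 alternatives, all below 1. Its ratio to coding introns of other genes lay between 0.955 and 1.02 in 9, on either side of 1, and each interval held 1. Leaving out a 30 °C replicate gave 53.5% to 55.2% for 5′ UTR introns, 33.3% to 43.8% for 3′ UTR introns and a 5′ minus 3′ difference of 11.5 to 20.2 points. No paired analysis was possible because the 37 °C groups have 1 library each and share fewer than 2 replicate numbers with the others.

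The 3′ UTR shares moved most. Without reads ending over 100 nt past the gene they were 22.2% in wild type at 37 °C, 18.2% in 30 °C replicate 1 and 21.6% in the 30 °C mean. In reads starting before the stop codon alone, an alternative chosen after seeing the data, they were 6.67% in prp2-1, 24% in wild type at 37 °C, 16.7% in replicate 2, 27.3% in replicate 1 and 22.0% in the mean. Without pac3 they were 20%, 19.4%, 13.8% and 16.6% in wild type at 37 °C, replicate 2, replicate 1 and the mean. The 5′ minus 3′ difference from reads starting before the stop codon was 25.7 points in prp2-1, 27.6 in wild type at 37 °C and 32.4 in the 30 °C mean. Without reads past the gene it was 30.3 in wild type at 37 °C, 37.4 in replicate 1 and 33.2 in the mean. Without the most-crossed intron of each class it was 30.9, 40.8 and 37.4. Without introns overlapping a non-coding RNA gene it was 14.5 in replicate 2, with an interval that held 0, and 8.45 in the mean.

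The odds ratio of UTR over coding introns of the same genes left out 1 in wild type at 37 °C without reads past the gene (0.555) or the most-crossed introns (0.554), and in replicate 2 with distance bins as strata (0.389). In replicate 1 it did so with exact gap ends (0.574), without reads past the gene (0.447), with reads from before the stop codon (0.559) and without the most-crossed introns (0.495). Between prp2-1 and wild type at 37 °C, UTR introns called numbered 0 without repeated read names, 1 without reads past the gene, 1 with reads from before the stop codon, and 0 at a minimum of 5 or of 20 reads. At a minimum of 5 reads put2 had an adjusted p = 0.0531 and pac3 an adjusted p = 0.0966 (Fisher's exact test). The causes were not tested. Of 54 3′ UTR introns 3 had 10 reads or more, and the 3′ UTR shares rest largely on pac3.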
